A study of Mus musculus with 12 samples.

Results

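The glycolysis enzymes examined here are 10 genes that together cover most of the steps from glucose to lactate: Hk1, Hk2, Pfkl, Pfkp, Aldoa, Gapdh, Pgk1, Eno1, Pkm and Ldha. They were taken by gene symbol from the 40760 genes of the deposited tables, each symbol matched a single gene, and all 10 were among the 17418 genes that passed edgeR's filter on low counts.

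Bulk RNA-seq was carried out on Pdgfra+ (CD140a+) mesenchymal cells sorted from the lungs of young adult male mice on a C57BL/6 background. The 12 libraries formed 4 groups of 3: wild-type mice given vehicle (WT vehicle), wild-type mice given bleomycin (WT bleo), Pear1-/- mice given vehicle (Pear1-/- vehicle) and Pear1-/- mice given bleomycin (Pear1-/- bleo). Bleomycin is a drug that injures the lung and leads to fibrosis. Pear1 encodes a membrane receptor, and the Pear1-/- mice carry a knockout-first allele in every tissue, in which a splice acceptor cassette inside the gene is meant to trap the transcript. The dose of bleomycin and the day of harvest that applied to the sorted libraries are not given in the sources used here. Nor is the number of mice behind each library. The p-values below therefore measure the spread between these libraries, which need not be that between mice.

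Glycolysis splits glucose in the cytosol into pyruvate and yields ATP and NADH without oxygen. Hexokinases trap glucose in the cell, phosphofructokinases commit it to the pathway, and lactate dehydrogenase turns pyruvate into lactate, which regenerates NAD+. Several of these genes are textbook targets of hypoxia-inducible factors, and fibroblasts that build matrix are known for high glycolytic activity.

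Library totals ran from 6702948 to 10447101 counts. In WT vehicle, replicate 2 and replicates 1 and 3 stood apart from each other. The measure was a chi-square over genes, divided by its degrees of freedom so that pure counting noise gives about 1. It was 21.2 and 21.8 for replicate 2 with replicates 1 and 3, and 1.58 for replicates 1 and 3. Against the libraries labelled Pear1-/- vehicle, replicate 2 gave between 1.73 and 2.67, and replicates 1 and 3 gave between 23.1 and 27.2. Pairs within a group gave between 1.35 and 1.49 in WT bleo and between 1.37 and 1.47 in Pear1-/- bleo. In Pear1-/- vehicle they gave between 1.44 and 4.82. The libraries of each bleo group thus differed by little more than counting noise, and whether they come from separate mice is not given. Pear1 itself had 576, 545 and 519 normalized counts in WT vehicle, 511, 501 and 547 in Pear1-/- vehicle, 256, 239 and 266 in WT bleo and 355, 372 and 344 in Pear1-/- bleo. Between the vehicle groups the log2 fold change was -0.08 (standard error 0.077, edgeR adjusted p = 0.49), with 2 of the 3 libraries labelled Pear1-/- under all WT ones. After bleomycin Pear1 was higher in the libraries labelled Pear1-/- (log2 fold change 0.48, standard error 0.081, adjusted p = 7.54e-05 in edgeR's quasi-likelihood test). The counts are per gene and cannot separate exons before the cassette from those after it, and the genotype below is the deposited label.

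The 10 enzymes took a larger share of all counts after bleomycin, and a still larger one in the bleo libraries labelled Pear1-/-. Their summed share was between 0.186 and 0.206% of counts in WT vehicle, between 0.197 and 0.216% in Pear1-/- vehicle, between 0.323 and 0.329% in WT bleo, and between 0.401 and 0.412% in Pear1-/- bleo. The vehicle groups overlapped, and each bleo group lay above both of them and apart from the other. The number of genes with a count moved with the same groups, from between 27702 and 35884 in vehicle (35472 and 35884 in WT vehicle replicates 1 and 3) to between 21621 and 22422 in bleo, and its part in the enzymes' share was not tested.

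Levels of different genes were compared as library-scaled counts (CPM) per kb of exonic length, merged over all annotated exons of a gene. This length was 13401 bases for Pfkp and 4133 for Gapdh, while their longest coding transcripts have 4145 and 1420. The order of different genes below therefore depends on the length used. In WT vehicle the entry steps were low: Hk1 had 7.30 ± 0.365 (SD, n = 3), Hk2 8.26 ± 0.836, Pfkl 7.72 ± 0.330 and Pfkp 10.7 ± 0.615 CPM per kb. By this length these 4 genes lay within a narrow range, and Hk1, Hk2 and Pfkl could not be ordered beyond their spread. The later enzymes stood above them. Both the narrow range and the gap to the later enzymes rest on the merged exonic length. Pgk1 had 28.2 ± 0.799, Eno1 42.4 ± 0.301 and Gapdh 54.2 ± 6.14 CPM per kb. Pkm and Ldha came next with 84.9 ± 6.16 and 88.4 ± 9.64 and did not differ beyond their spread, and Aldoa was highest with 144.7 ± 4.16. In Pear1-/- bleo the order at the top had changed: Ldha reached 254.3 ± 5.98 CPM per kb, above Aldoa at 203.4 ± 2.91 and Pkm at 190.0 ± 4.44, while in WT bleo Aldoa at 178.6 ± 1.14 and Ldha at 174.1 ± 1.60 were close.

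**Figure D1:**
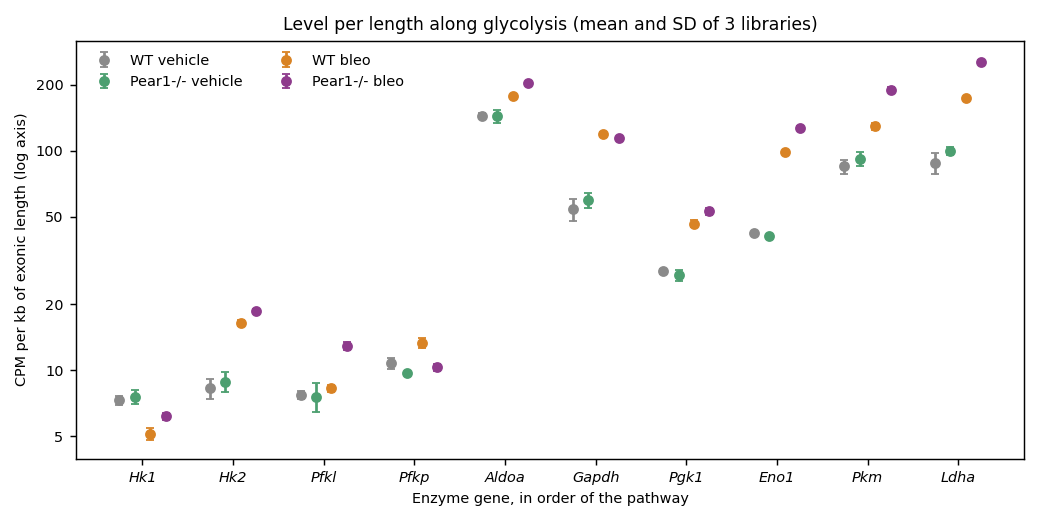
Mean level of each enzyme in CPM per kb of exonic length (log axis), with the SD of 3 libraries, for the 4 groups along the pathway. By this length, merged over all annotated exons, hexokinases and phosphofructokinases lie under 20 CPM per kb in all groups. For Pfkp it is 13401 bases, against 4145 in the longest coding transcript, so the heights of different genes depend on it. Ldha rises from 88.4 in WT vehicle to 254.3 in Pear1-/- bleo.

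The first comparison asks what bleomycin changed in wild-type cells. Of the 10 enzymes 8 were higher in WT bleo than in WT vehicle and 1 was lower, where 31.4% of all tested genes were higher and 36.5% lower (67.9% in either direction) at an adjusted p under 0.05 (edgeR's quasi-likelihood test, Benjamini-Hochberg over the 17418 genes). Hk2, Gapdh, Eno1 and Ldha rose more than 2-fold, as 10.5% of all genes did, and none fell by as much, as 23.3% did. Of these 4, only Gapdh and Eno1 stayed over 2-fold with library totals, upper-quartile scaling or TMM from the higher genes, and only Eno1 did with replicate 2 as the lone WT vehicle library. Leaving out WT vehicle replicate 3 left 2 of the 4, Gapdh and Eno1, and leaving out replicate 1 left 3. The median log2 fold change of the 10 was 0.74, against -0.07 over all tested genes. For the 10 it was 0.91 without WT vehicle replicate 2 and 0.57 against that replicate alone. Hk1 fell, and Pfkl did not pass the test. In the bulk of the sorted cells, fewer cells of a type and less RNA per cell cannot be told apart.

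The hexokinases moved in opposite directions. Hk1, the housekeeping hexokinase of most tissues (ENSMUSG00000037012, GRCm38 chr10:62268855-62379908, minus strand), had 531, 577 and 476 normalized counts in WT vehicle, 412, 367 and 389 in WT bleo, 558, 593 and 659 in Pear1-/- vehicle and 455, 492 and 468 in Pear1-/- bleo. Every bleo library of a genotype lay under every vehicle library of the same genotype. Its log2 fold change was -0.43 in WT bleo (standard error 0.087, edgeR adjusted p = 0.000267) and -0.35 in Pear1-/- bleo (standard error 0.085, edgeR adjusted p = 0.00152). Hk2, the inducible hexokinase of muscle, fat and proliferating cells (ENSMUSG00000000628, chr6:82725025-82774454, minus strand), had 377, 509 and 374 normalized counts in WT vehicle, 850, 865 and 901 in WT bleo, 481, 445 and 562 in Pear1-/- vehicle and 1013, 980 and 991 in Pear1-/- bleo. All 6 bleo libraries were above all 6 vehicle libraries, and the highest WT vehicle value was that of replicate 2. Hk2 rose by 1.06 on the log2 scale among WT libraries (standard error 0.104, edgeR adjusted p = 4.41e-08) and by 1.01 in Pear1-/- bleo (standard error 0.102, edgeR adjusted p = 9.11e-08).

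Within each library, the ratio of Hk2 to Hk1 counts does not depend on the scaling between libraries. It was between 0.710 and 0.882 in WT vehicle and between 0.751 and 0.863 in Pear1-/- vehicle, so Hk1 counts exceeded those of Hk2 in every vehicle library. After bleomycin it was between 2.06 and 2.35 in WT and between 1.99 and 2.23 in Pear1-/-. The ratio was 2.83-fold higher in WT bleo than in WT vehicle and 2.57-fold higher in Pear1-/- bleo than in Pear1-/- vehicle. In each case the groups did not overlap and the exact two-sided permutation test gave its smallest possible value with 3 against 3 libraries, p = 0.1 (adjusted p = 0.171 over the 12 isozyme tests), so this design cannot reach 0.05.

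At phosphofructokinase, the isozymes responded differently in the genotypes as labelled. Pfkl encodes the liver type subunit (ENSMUSG00000020277, chr10:77986947-78010083, minus strand) and Pfkp the platelet type subunit (ENSMUSG00000021196, chr13:6579768-6648777, minus strand) of the enzyme that commits glucose to glycolysis. Pfkl had 439, 471 and 401 normalized counts in WT vehicle, 501, 470 and 501 in WT bleo, 445, 414 and 562 in Pear1-/- vehicle and 787, 785 and 739 in Pear1-/- bleo. Only the Pear1-/- bleo libraries stood apart. Pfkp had 1140.0, 1278 and 1235 normalized counts in WT vehicle, 1498, 1664 and 1583 in WT bleo, 1203, 1203 and 1248 in Pear1-/- vehicle and 1208, 1289 and 1214 in Pear1-/- bleo. Here the WT bleo libraries stood apart, and the other 3 groups overlapped.

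Pfkl rose by 0.71 on the log2 scale between Pear1-/- vehicle and Pear1-/- bleo (standard error 0.096, edgeR adjusted p = 3.5e-06), and its value was 0.18 in WT (standard error 0.098, edgeR adjusted p = 0.113). Pfkp rose by 0.39 in WT bleo (standard error 0.069, edgeR adjusted p = 6.9e-05) and had a value of 0.03 in Pear1-/- bleo (standard error 0.069, edgeR adjusted p = 0.751). The difference between the genotypes in these effects was itself tested, as the interaction of genotype and bleomycin in the same fit. It was 0.53 for Pfkl (standard error 0.137, edgeR adjusted p = 0.00518) and -0.36 for Pfkp (standard error 0.098, edgeR adjusted p = 0.00704).

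The ratio of Pfkp to Pfkl counts was between 2.59 and 3.08 in WT vehicle, between 2.22 and 2.91 in Pear1-/- vehicle and between 2.99 and 3.54 in WT bleo, but between 1.54 and 1.64 in Pear1-/- bleo. The ratio in Pear1-/- bleo was 0.499 times that in WT bleo and 0.620 times that in Pear1-/- vehicle, with no overlap in either case (exact permutation p = 0.1, the smallest possible, adjusted p = 0.171). Between WT bleo and WT vehicle the ratio differed by 1.15-fold with overlapping libraries (exact permutation p = 0.2, adjusted p = 0.3). Exonic bases of Pfkp overlap the oppositely transcribed gene Pitrm1, which held 32.9% as many counts as Pfkp and had a log2 fold change of -0.23 in WT bleo. Whether the counting used strand is not given in the sources used here, so reads of these genes may not have been told apart.

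**Figure D2:**
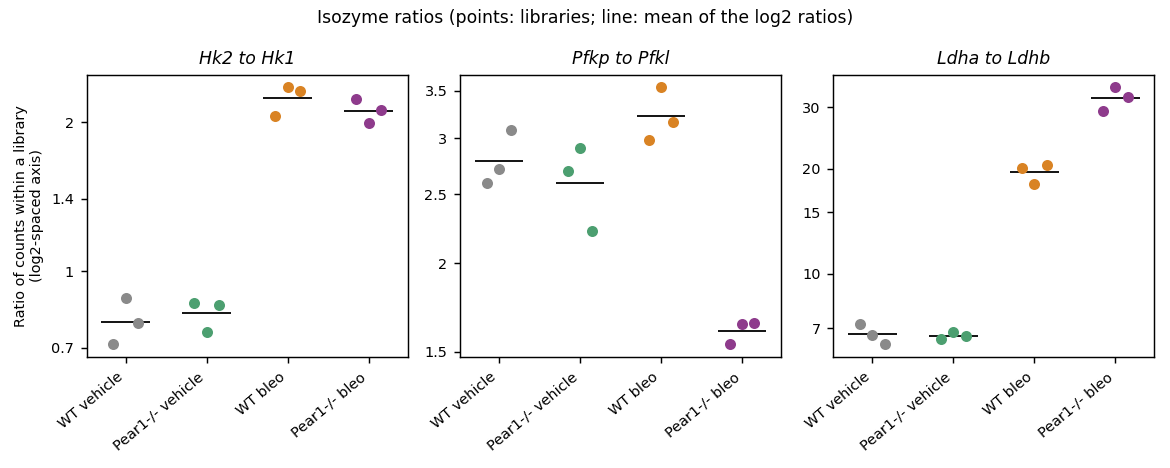
Ratio of the counts of isozyme pairs within each library (log2-spaced axes), with points for libraries and a line at the mean of the log2 ratios. Hk2 to Hk1 passes from under 0.9 in vehicle to about 2 in both bleo groups, Pfkp to Pfkl falls to between 1.54 and 1.64 in Pear1-/- bleo alone, and Ldha to Ldhb climbs from about 7 to about 20 and then to between 29.2 and 34.2.

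The enzymes that split and oxidize the sugar phosphates rose in both genotypes. Aldoa, the aldolase of muscle and most other tissues (ENSMUSG00000030695, chr7:126795234-126800751, minus strand), had between 3281 and 3966 normalized counts in WT vehicle, between 3732 and 4291 in Pear1-/- vehicle, between 4600.3 and 4658 in WT bleo and between 5243 and 5345 in Pear1-/- bleo. It had one of the smaller rises, 0.38 in WT bleo (standard error 0.074) and 0.44 in Pear1-/- bleo (standard error 0.074), both past the test. Pgk1, the first ATP-yielding enzyme of the pathway (ENSMUSG00000062070, chrX:106187100-106203699, plus strand), had between 498 and 600 normalized counts in WT vehicle, between 541 and 594 in Pear1-/- vehicle, between 893 and 959 in WT bleo and between 1013 and 1105 in Pear1-/- bleo. It rose by 0.80 in WT and by 0.91 in Pear1-/- libraries (log2), and in neither genotype did bleo and vehicle libraries overlap.

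Gapdh, the NADH-yielding dehydrogenase of the middle of the pathway (ENSMUSG00000057666, chr6:125161715-125166467, minus strand), had 1817, 2309 and 1603 normalized counts in WT vehicle, 4519, 4350.4 and 4353 in WT bleo, 2151, 2216 and 2544 in Pear1-/- vehicle and 4172, 4195 and 4279 in Pear1-/- bleo. All bleo libraries were above all vehicle libraries, and the log2 fold change was 1.22 in WT bleo (standard error 0.0996, edgeR adjusted p = 4.78e-09) and 0.88 in Pear1-/- bleo (standard error 0.0987, edgeR adjusted p = 4.87e-07). These values are uncertain because Gapdh has many near-identical copies. Of the annotated transcripts of other genes, those of 71 matched at least 50% of the Gapdh transcript at 95% identity or more, and 68 of these genes are in the count table. Their counts came to 40.3 and 46.2% of the Gapdh count in WT vehicle replicates 1 and 3 and 13.8% in replicate 2, to between 12.5 and 13.9% in Pear1-/- vehicle, to between 9.07 and 10.4% in WT bleo and to between 24.4 and 25.2% in Pear1-/- bleo. With the copies added, an alternative chosen after the data were seen, the rise was 0.96 in WT bleo and 1.01 in Pear1-/- bleo, both past the test, so that the WT rise was no longer over 2-fold. For Pgk1, Eno1 and Pkm the copies held 0.574, 2.34 and 0.253% as many counts as the gene, and for the other enzymes none were counted.

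Of the last steps, all 3 enzymes rose in both genotypes. Eno1, the enolase of most tissues (ENSMUSG00000063524, chr4:150236721-150248879, plus strand), had 1869, 2096 and 1839.7 normalized counts in WT vehicle, 4760.2, 4773 and 4731 in WT bleo, 2019.8, 2029.8 and 2095 in Pear1-/- vehicle and 5955, 6296 and 6164 in Pear1-/- bleo. The vehicle libraries of both genotypes fell together, WT bleo lay at more than 2 times that level with little spread, and Pear1-/- bleo lay higher still. Its log2 fold change, the largest of the 10 in both genotypes, was 1.31 in WT bleo (standard error 0.065, edgeR adjusted p = 1.71e-12) and 1.59 in Pear1-/- bleo (standard error 0.065, edgeR adjusted p = 1.58e-13). In WT its place above Gapdh did not hold in every alternative fit, where the highest values were 1.443 for Gapdh and 1.438 for Eno1.

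Pkm encodes the pyruvate kinase of muscle and of proliferating cells (ENSMUSG00000032294, chr9:59656368-59679375, plus strand), and its splice forms are not separated in counts per gene. It had 3518, 4168 and 3147 normalized counts in WT vehicle, 6009, 5593 and 5660.3 in WT bleo, 4059, 4107 and 4755 in Pear1-/- vehicle and 8301, 8759 and 8469 in Pear1-/- bleo. All bleo libraries were above all vehicle libraries, and the Pear1-/- bleo libraries were above all others. The log2 fold change was 0.68 in WT bleo (standard error 0.086) and 0.99 in Pear1-/- bleo (standard error 0.086).

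Ldha, which makes the lactate dehydrogenase subunit that favours lactate formation (ENSMUSG00000063229, chr7:46841475-46855627, plus strand), had 2311, 3033 and 2141 normalized counts in WT vehicle, 5132, 5181 and 5077 in WT bleo, 3043, 2962 and 3283 in Pear1-/- vehicle and 7397, 7765 and 7449 in Pear1-/- bleo. WT vehicle replicate 2 fell among the Pear1-/- vehicle libraries, and the 2 bleo groups were far apart. Ldha rose by 1.05 on the log2 scale among WT libraries (standard error 0.094, edgeR adjusted p = 1.22e-08) and by 1.29 in Pear1-/- bleo (standard error 0.094, edgeR adjusted p = 1.04e-09). Its partner subunit Ldhb, which is no member of the 10 and favours the reverse reaction, fell by 0.49 in WT bleo and by 0.96 in Pear1-/- bleo. The ratio of Ldha to Ldhb counts was accordingly between 6.29 and 7.18 in WT vehicle, between 6.51 and 6.80 in Pear1-/- vehicle, between 18.1 and 20.4 in WT bleo and between 29.2 and 34.2 in Pear1-/- bleo. The 2 vehicle groups overlapped, and the ratio was 1.63-fold higher in Pear1-/- bleo than in WT bleo without overlap (exact permutation p = 0.1, the smallest possible, adjusted p = 0.171).

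**Figure D3:**
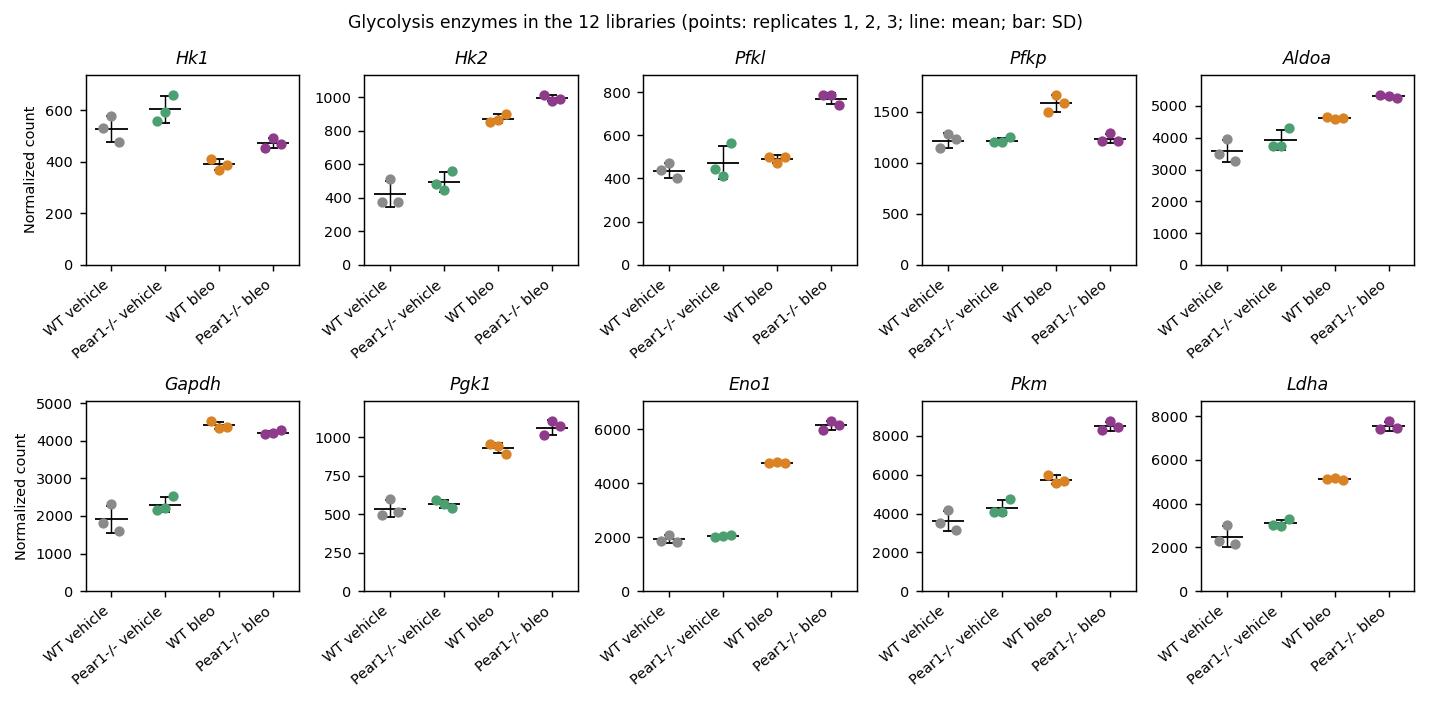
Normalized counts of the 10 enzymes in each of the 12 libraries, with the mean (line) and SD (bar) of each group of 3 and axes that start at 0. In 8 of the 10 panels the WT bleo libraries lie above WT vehicle, in that of Hk1 they lie under it, and in that of Pfkl the groups overlap.

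In the libraries labelled Pear1-/-, 8 of the 10 enzymes were higher and 1 was lower in bleo than in vehicle, where 29.1% of all tested genes were higher and 33.1% lower (62.2% in either direction). Over 2-fold rises were those of Hk2, Eno1 and Ldha, as for 8.37% of all genes, and none fell by as much, as 19.3% did. Hk2 stood at the edge of 2-fold and was under it in 7 of the 18 alternative fits. The median log2 fold change was 0.89, against -0.05 over all genes. In this comparison Pfkp was the enzyme that did not pass. Bleo and vehicle libraries did not overlap for 9 of the 10 enzymes in either genotype, where this held for 68.7% of all genes in WT and 70.9% in Pear1-/-. Neither comparison changed its calls when any single library of its own groups was left out, save that without WT vehicle replicate 2 Pfkl also passed in WT (log2 fold change 0.30, adjusted p = 0.00312), which made 9 higher in a fit that called 76.4% of all genes.

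Promoter sequences are shown for 4 of the enzymes, Hk2, Pgk1, Eno1 and Ldha, which are known targets of hypoxia-inducible factors and rose in both genotypes. Aldoa, Gapdh and Pkm also rose in both genotypes and their sequences are not shown. The windows run from 250 bases before to 50 after an annotated start and come from RefSeq on GRCm38.p6. All 10 enzymes have at least 1 window, 17 in all. The motif searched was ACGTG, on both strands and thus also as CACGT, and the 2 strands overlap where a window reads CACGTG. The windows below are those of Hk2 (chr6:82774405-82774704, minus strand), Pgk1 (chrX:106186850-106187149, plus strand), Ldha (chr7:46845554-46845853, plus strand) and Eno1 (chr4:150236458-150236757, plus strand), written 5′ to 3′ with matches in capitals.
Hk2: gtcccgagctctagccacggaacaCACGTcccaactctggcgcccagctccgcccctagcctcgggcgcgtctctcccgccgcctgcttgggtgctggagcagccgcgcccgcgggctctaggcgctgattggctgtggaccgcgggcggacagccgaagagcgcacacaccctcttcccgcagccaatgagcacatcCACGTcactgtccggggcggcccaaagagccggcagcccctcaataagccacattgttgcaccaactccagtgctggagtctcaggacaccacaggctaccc
Pgk1: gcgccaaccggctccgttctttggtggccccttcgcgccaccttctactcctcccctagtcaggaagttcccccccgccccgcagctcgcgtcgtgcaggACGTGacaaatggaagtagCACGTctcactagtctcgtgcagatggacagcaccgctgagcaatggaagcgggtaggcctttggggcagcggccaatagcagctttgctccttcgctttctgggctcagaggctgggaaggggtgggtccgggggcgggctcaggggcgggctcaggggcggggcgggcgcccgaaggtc
Ldha: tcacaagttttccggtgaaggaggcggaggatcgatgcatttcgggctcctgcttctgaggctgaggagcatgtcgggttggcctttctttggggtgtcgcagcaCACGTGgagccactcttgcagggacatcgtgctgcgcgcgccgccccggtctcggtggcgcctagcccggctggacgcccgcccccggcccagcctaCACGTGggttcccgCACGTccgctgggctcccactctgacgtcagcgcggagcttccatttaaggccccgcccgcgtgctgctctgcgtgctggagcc
Eno1: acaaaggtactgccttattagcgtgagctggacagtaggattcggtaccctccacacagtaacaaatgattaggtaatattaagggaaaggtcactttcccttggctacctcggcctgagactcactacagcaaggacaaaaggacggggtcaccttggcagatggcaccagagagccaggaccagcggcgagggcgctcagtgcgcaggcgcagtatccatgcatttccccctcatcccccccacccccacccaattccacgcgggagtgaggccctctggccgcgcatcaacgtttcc
Hk2 and Pgk1 each held 2 separate matches. Ldha held 3, of which 2 read CACGTG, and its other window held none. The 3 windows of Eno1, whose log2 fold change given above was the largest of the 10, had no match to these letters. Among all 10 enzymes, 7 had a match in at least 1 window, the exceptions being Pfkl, Pfkp and Eno1, where 21.8% of the 27025 genes with windows had one. By window it was 8 of 17, against 19.6% of the 32851 windows. The enzymes have more windows per gene than all genes do, which makes a match per gene easier. Windows 2 and 3 of Aldoa overlap and share 1 match, counted in both. A match is a description of the sequence only.

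The third comparison set the bleo groups against each other. Of the 10 enzymes 6 were higher and 1 was lower in Pear1-/- bleo than in WT bleo, where 22.1% of all tested genes were higher and 24.0% lower (46.1% in either direction). None of the 7 differed more than 2-fold, as 6.22% of all genes did upwards and 8.80% downwards. The median log2 fold change was 0.22, against -0.01 over all genes. The bleo groups of the comparisons above enter this one as well, so the values are not independent of those already given. All 10 enzymes had bleo groups that did not overlap, as did 62.9% of all genes.

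Pfkl (log2 fold change 0.64, standard error 0.095, edgeR adjusted p = 1.97e-05), Pkm (0.55, standard error 0.085, edgeR adjusted p = 2.93e-05) and Ldha (0.54, standard error 0.092, edgeR adjusted p = 8.87e-05) were the enzymes most above WT bleo. Eno1 was higher by 0.36 (standard error 0.064, edgeR adjusted p = 0.00014), and Pfkp was lower (-0.37, standard error 0.069, edgeR adjusted p = 0.000231). These 5 calls held without any single bleo library. Hk1 (0.26, edgeR adjusted p = 0.0186) and Aldoa (0.18, edgeR adjusted p = 0.049) passed narrowly. Neither passed when any 1 of the 6 bleo libraries was left out, which gave 4 enzymes higher in fits that called 31.9% to 32.4% of all genes, against 46.1% with all libraries. Over all 18 alternative fits the call was lost in 7 for Hk1 and in 11 for Aldoa, and the adjusted p of Aldoa was 0.0601 without the robust estimate of the spread.

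Hk2 (0.18, standard error 0.099, edgeR adjusted p = 0.152), Pgk1 (0.18, standard error 0.074, edgeR adjusted p = 0.0558) and Gapdh (-0.08, standard error 0.098, edgeR adjusted p = 0.546) did not pass. The Gapdh value turned to 0.11 with its copies added (adjusted p = 0.22). When the 2 bleo groups were fitted on their own, all 3 passed, as did all 10 enzymes and 66.0% of all genes in that fit (edgeR adjusted p = 0.000186, 0.000135 and 0.013). Over all 18 alternative fits, that one included, Pgk1 passed in 4, and Hk2 and Gapdh in 1 each.

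**Figure D4:**
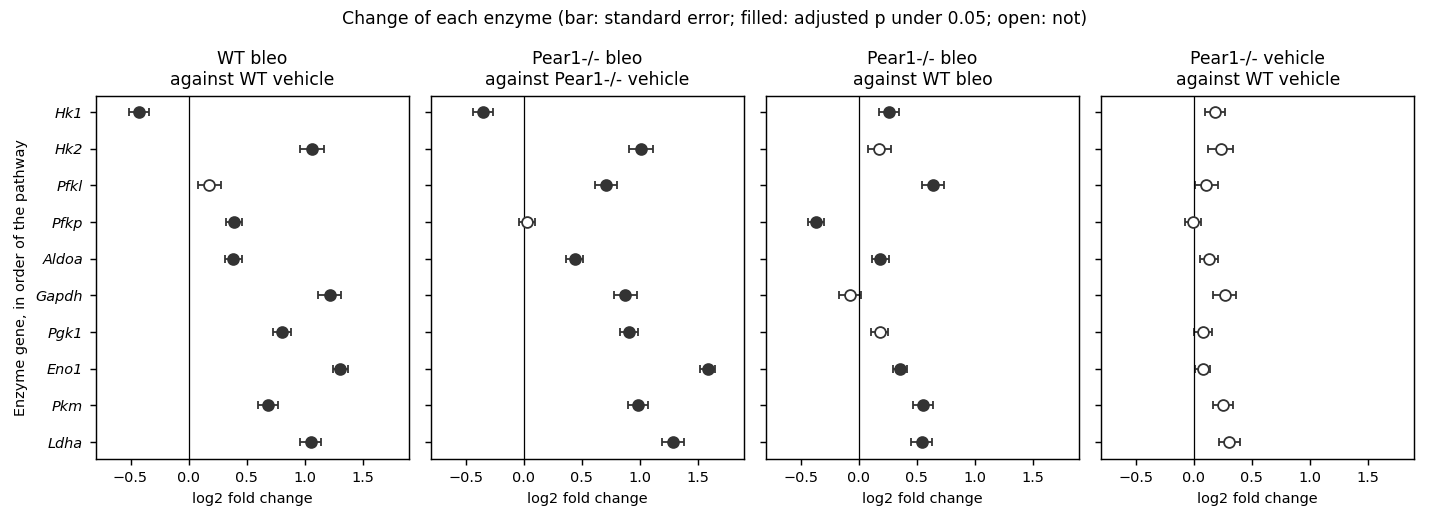
Log2 fold change of each enzyme with its standard error in 4 comparisons, filled where the edgeR adjusted p is under 0.05 and open where it is not. Both bleomycin comparisons show Hk1 left of 0 and 8 enzymes right of it past the test, the bleo groups differ mainly in Pfkl, Pkm and Ldha upwards and Pfkp downwards, and no point is filled between the vehicle groups.

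Between Pear1-/- vehicle and WT vehicle, 0 of the 10 enzymes passed in edgeR's test and 0 in DESeq2's, where edgeR called 1.95% of all tested genes higher and 5.29% lower (7.24% in either direction). At an unadjusted p under 0.05 there were 5, namely Hk1, Hk2, Gapdh, Pkm and Ldha, where 31.4% of all genes were under it. Log2 fold changes ran from -0.01 for Pfkp to 0.31 for Ldha (standard error 0.093, edgeR adjusted p = 0.0513), and the groups overlapped for all 10, where 19.2% of all genes did not overlap. None of the 10 reached a 2-fold difference past the test, as 0.0689% of all genes did upwards and 3.25% downwards. The outcome rested on WT vehicle replicate 2. Without it 9 of the 10, all but Pfkp, were higher in Pear1-/- vehicle, with 0.54 for Ldha (adjusted p = 9.7e-12), 0.50 for Gapdh and 0.46 for Hk2, but in that fit 55.3% of all genes were called in either direction, and 13 of 18 leukocyte, 4 of 6 endothelial and 4 of 6 epithelial markers were higher too. The Gapdh value also depends on its near-identical copies. Over all vehicle libraries, the log2 ratio of its group means was 0.27 alone and 0.06 with the copies added. With replicate 2 as the lone WT vehicle library, assumed to vary like the other groups and tried after the data were seen, 0 of 10 passed, as did 0 of all 18175 genes tested, and values ran from -0.08 for Pgk1 to 0.06 for Hk1.

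The effect of bleomycin differed between the genotypes as labelled for 3 enzymes. The interaction was positive for Pfkl and Eno1, where 17.8% of all genes had a positive interaction past the test, and negative for Pfkp, where 19.3% had a negative one (37.1% in either direction). None of the 3 reached 2-fold, as 8.53% of all genes did upwards and 6.98% downwards. For Eno1 it was 0.28 (standard error 0.091, edgeR adjusted p = 0.021), a call that was lost in 12 of 24 alternative fits, against 3 of 24 for Pfkl and 1 of 24 for Pfkp. Gapdh (-0.34, edgeR adjusted p = 0.0612) and Pkm (0.30, edgeR adjusted p = 0.0564) came near the threshold. Without WT vehicle replicate 2, Eno1 no longer passed (0.13, adjusted p = 0.119), and Gapdh and Hk2 passed with negative values (-0.59 and -0.30), which made 1 enzyme positive and 3 negative in a fit that called 46.4% of all genes. With the copies of Gapdh added, its interaction was 0.06.

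Over the 12 libraries, 8 of the enzymes each had another with a correlation over 0.9 in log2 CPM, and Hk1 and Pfkp did not. Pgk1 and Eno1 were each other's nearest (Pearson r = 0.992), as were Pkm and Ldha (0.989) and Hk2 and Gapdh (0.981), and the nearest to Aldoa was Ldha (0.983). The nearest enzyme to Pfkl was Pkm (0.921) and the nearest to Pfkp was Gapdh (0.624), while the highest correlation of Hk1 with any other was -0.16. These values describe 12 points that fall into the 4 groups and share the library scaling. Among 10693 genes averaging 3 or more in log2 CPM, the 5 most like the mean standardized profile of the enzymes were Rps2, Phb2, Cd63, Tuba1b and Isyna1, with r between 0.991 and 0.992 over the 12 libraries.

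The other glycolytic enzymes and isozymes filled in the remaining steps. The counts of called genes in this and the following lists stand against all-gene shares of 31.4% higher and 36.5% lower in WT bleo, 29.1% and 33.1% in Pear1-/- bleo, and 22.1% and 24.0% between the bleo groups, and no list was tested against them. Of 17 such genes 11 were tested, and 6 were higher and 4 lower in WT bleo, 8 higher and 3 lower in Pear1-/- bleo, each against its vehicle. Tpi1, triosephosphate isomerase, rose from 1245 ± 153 to 2076 ± 53.0 normalized counts in WT (SD, n = 3) and from 1407 ± 98.4 to 2865 ± 81.0 in Pear1-/-, and Pgam1, phosphoglycerate mutase, rose by 1.09 and 1.18 on the log2 scale. Hk3, the hexokinase typical of myeloid cells, rose from 105 ± 2.34 to 279 ± 11.5 normalized counts in WT and stood at 134 ± 14.8 in Pear1-/- bleo. Eno2, the enolase typical of neurons, fell from 145 ± 9.02 to 53.4 ± 5.47 in WT bleo and had 162 ± 18.2 in Pear1-/- bleo, a log2 difference of 1.58 between the bleo groups (standard error 0.138, edgeR adjusted p = 2.06e-08). Pfkm, the muscle type phosphofructokinase, had a log2 fold change of -1.27 in WT bleo and of -0.38 in Pear1-/- bleo, and was higher by 0.68 in the latter. Between the bleo groups 3 of the 11 were higher and 3 lower, close to the all-gene shares, with a median of -0.01.

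Transport of glucose and lactate was measured in 8 genes. Against vehicle, 3 were higher and 1 lower in the WT libraries and 4 higher and 1 lower in the Pear1-/- ones, and between the bleo groups 4 were higher and 2 lower in Pear1-/-. Slc2a1, the glucose transporter GLUT1, rose by 0.69 in WT bleo and by 0.70 in Pear1-/- bleo, whereas Slc2a3, the transporter GLUT3, fell by 1.35 and by 2.19. Slc16a1, the monocarboxylate transporter MCT1, reached 723 ± 28.6 normalized counts in Pear1-/- bleo against 274 ± 21.9 in WT bleo (SD, n = 3), a log2 difference of 1.39 (standard error 0.156, edgeR adjusted p = 4.6e-06). Slc16a7, the transporter MCT2, went the other way, with 162 ± 21.6 and 52.6 ± 9.24. Bsg, the chaperone of MCT1, was higher by 0.42 in Pear1-/- bleo.

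Regulators of phosphofructokinase and of pyruvate entry into mitochondria were measured in 15 genes. In WT bleo 5 were higher and 6 lower, close to the all-gene shares, and there were 6 higher and 3 lower in Pear1-/- bleo, and 7 higher and 2 lower in Pear1-/- bleo than in WT bleo. Pfkfb4, which makes the activator of phosphofructokinase, rose from 211 ± 9.82 to 657 ± 47.7 normalized counts in WT bleo and was at 390.0 ± 33.7 in Pear1-/- bleo (SD, n = 3). Pfkfb3, of the same family, fell by 0.61 and by 0.79 in the 2 genotypes. Pdk4, a kinase that switches off pyruvate dehydrogenase, fell from 219 ± 103 to 34.4 ± 8.37 in WT and stood at 191 ± 14.8 in Pear1-/- bleo, a log2 difference of 2.45 between the bleo groups (standard error 0.326, edgeR adjusted p = 0.000103). Pdk3, of the same kinase family, rose by 0.55 in WT bleo and by 1.24 in Pear1-/- bleo.

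The pentose phosphate pathway branches off glycolysis to make NADPH and ribose. Of its 7 genes 6 were higher and 1 lower in WT bleo, and 5 were higher and 1 lower in Pear1-/- bleo. Between the bleo groups 0 were higher and 5 lower in Pear1-/-, with a median of -0.39 against 0.22 for the 10 enzymes. The exceptions were Rpia, ribose 5-phosphate isomerase, which was the gene lower after bleomycin in both genotypes (-0.68 and -1.25), Rpe, which did not pass in Pear1-/- (-0.22), and Rpia and Pgls, which did not pass between the bleo groups. Of 18 leukocyte markers 14 were likewise higher in WT bleo than in vehicle and 14 lower in Pear1-/- bleo than in WT bleo, and their part in these values was not tested. Pgd, 6-phosphogluconate dehydrogenase, rose from 605 ± 47.1 to 1771 ± 28.9 normalized counts in WT and stood at 1361 ± 61.1 in Pear1-/- bleo (SD, n = 3). Taldo1, transaldolase, had 1023 ± 150.1, 2487 ± 89.9 and 1763 ± 83.0 in the same groups. Of the 7 genes 4 had a negative interaction past the test and none a positive one, where 19.3% of all genes had a negative and 17.8% a positive one. Gluconeogenesis, the reverse route, had few tested genes, 3 of 7, and Pcx, pyruvate carboxylase, fell by 1.13 in WT bleo.

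**Figure D5:**
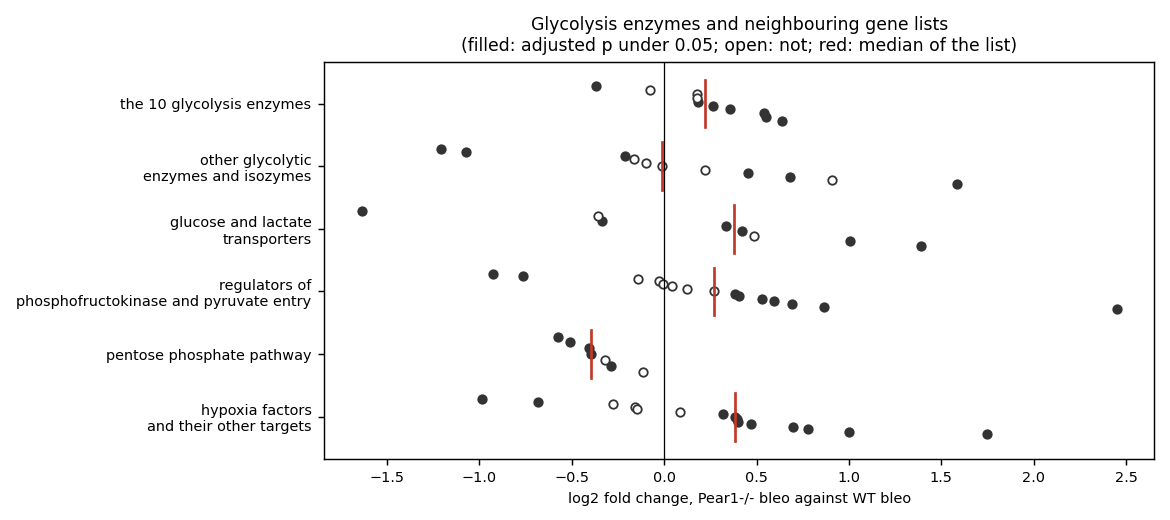
Log2 fold change between Pear1-/- bleo and WT bleo for the 10 enzymes and for the tested genes of 5 neighbouring lists, filled where the edgeR adjusted p is under 0.05, with the median of each list in red. The medians are 0.22 for the 10 enzymes and -0.39 for the pentose phosphate pathway, whose 7 genes all lie left of 0.

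Hypoxia factors and their other known targets made up a list of 15 genes, of which 8 were higher and 4 lower in WT bleo, 8 higher and 5 lower in Pear1-/- bleo, and 9 higher and 2 lower in Pear1-/- bleo than in WT bleo. Hif1a, the inducible factor itself, which was named after its values were seen, had a log2 fold change of 0.50 in WT bleo and 0.73 in Pear1-/- bleo, while its relative Epas1 fell by 1.34 and by 0.73. Vegfa, the vascular growth factor, rose by 1.14 in WT bleo and was lower in Pear1-/- bleo than in WT bleo (-0.68). Ddit4, a stress-induced inhibitor of growth signalling, was higher by 1.75 in Pear1-/- bleo than in WT bleo, and Bnip3, a mitochondrial target, had 552 ± 19.1 normalized counts there and 274 ± 9.49 in WT bleo (SD, n = 3). In vehicle Bnip3 had 492 ± 36.6 in Pear1-/- and 428 ± 39.7 in WT, so that its log2 fold change in WT bleo was -0.64. Adm had -1.22 in WT bleo and -0.75 in Pear1-/- bleo. The summed level of the list was 893 to 955 CPM in WT vehicle, 941 to 964 in Pear1-/- vehicle, 749 to 759 in WT bleo and 1008 to 1019 in Pear1-/- bleo.

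Markers of other cells and of fibroblast states moved with the same groups. For 18 leukocyte markers, 14 were higher and 2 lower in WT bleo, 12 higher and 2 lower in Pear1-/- bleo, and 14 lower in Pear1-/- bleo than in WT bleo, and their summed level was 3844 to 5104 CPM in WT vehicle, 4974 to 5378 in Pear1-/- vehicle, 17571 to 17839 in WT bleo and 8423 to 8592 in Pear1-/- bleo. Ptprc, which encodes CD45, had 3303, 3818, 7616 and 3365 mean normalized counts in the same order, and the myeloid gene Lyz2 rose by 2.69 in WT bleo and by 1.31 in Pear1-/- bleo. The 7 activated fibroblast markers were all higher in Pear1-/- bleo than in WT bleo, with sums of 5501 to 5612 CPM in WT bleo and 15249 to 15525 in Pear1-/- bleo against 648 to 970 in vehicle. Of the 10 resident fibroblast markers, 2 were higher and 8 lower in WT bleo, and 4 higher and 6 lower in Pear1-/- bleo, with medians of -1.43 and -1.06. Gsn, Inmt and Dcn had log2 fold changes of -3.35, -2.94 and -2.41 in Pear1-/- bleo, Pdgfra fell by 1.74 in WT bleo and by 0.80 in Pear1-/- bleo, and the collagen genes Col1a1, Col1a2 and Col3a1 rose by 2.18, 1.53 and 0.98 in Pear1-/- bleo. The summed level of the list, which holds both kinds, was 37076 to 39657 CPM in vehicle, 14857 to 15069 in WT bleo and 34657 to 35490 in Pear1-/- bleo. Proliferation markers, 7 in all, were higher in WT bleo without exception and 6 were higher in Pear1-/- bleo. The sums of 6 epithelial markers, Epcam and Sftpc among them, were 4738 to 6477 CPM in vehicle, 1634 to 1667 in WT bleo and 716 to 722 in Pear1-/- bleo. Of these markers 2 were higher and 4 lower in WT bleo, and 1 was higher and 5 lower in Pear1-/- bleo. Epcam rose by 0.36 in WT bleo and fell by 0.45 in Pear1-/- bleo, and Cdh1, which encodes E-cadherin, rose by 0.90 and 1.26. The sums of 6 endothelial markers, of which Pecam1 fell by 0.54 and by 0.76, were 344 to 380 CPM in vehicle, 178 to 190 in WT bleo and 192 to 204 in Pear1-/- bleo. The sums of 4 erythroid markers were 14.1 to 29.6 CPM in vehicle, 6.83 to 7.79 in WT bleo and 28.8 to 31.6 in Pear1-/- bleo, and of the 3 tested the haemoglobin genes Hba-a1 and Hbb-bs were higher in Pear1-/- bleo than in WT bleo, by 2.64 and 1.75. None of the leukocyte, epithelial or endothelial markers was at or under 3 counts in all libraries of a group, 1 erythroid marker was in each bleo group, and the part of any of these lists in the changes of the 10 enzymes was not tested.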

How the data were processed

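RNA of sorted Cd140a+ lung cells was amplified as full-length cDNA (SMART-Seq v4), made into TruePrep libraries and aligned by the authors to GRCm38 with HISAT2. The deposited tables hold raw counts per gene and a normalized signal, which the authors made by dividing counts by DESeq2 size factors (recomputed here, largest relative difference 1.09e-10). The counting program, its strand setting and the annotation release are not given in the sources used here. Both tables cover 40760 genes and all 12 libraries, grouped by the deposited labels.

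Counts were filtered with filterByExpr (17418 genes kept), scaled by TMM and fitted with edgeR 4.0.16 in R 4.3.3 by a robust quasi-likelihood model with a mean per group over all 12 libraries. An adjusted p under 0.05 (Benjamini-Hochberg over all genes kept) was a call, and a fold over 2 is given beside it. The interaction is the bleomycin effect in Pear1-/- minus that in WT. Ratios of isozymes, with 0.5 added to each count, were compared by exact two-sided permutation tests, adjusted over 12 tests. Levels between genes are CPM per kb of exonic length, merged over all annotated exons of a gene. Near-identical copies were found with BLAST 2.17.0. DESeq2 1.42.0, limma 3.58.1, other scalings and filters, a replicate block and leaving out each library were the alternatives. A count of 3, the lowest read as detected, was 0.287 to 0.448 CPM. Such floors cover counting error only.

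The 10 enzymes and all other gene lists were chosen with earlier results of these data known. From each other list up to 4 genes per comparison are named, those with the largest absolute log2 fold change among called genes averaging 3 or more in log2 CPM, beside a few defining markers. Hif1a, Rpia and Gm13394 fall outside this rule and were chosen after their values were seen.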

Additional observations from a re-analysis of the deposited data

Results flagged for a closer look

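The bleomycin effect differed between the genotypes as labelled for 3 of the 10 enzymes, by the interaction term fitted in edgeR over all genes. For Pfkl the difference was 0.53 on the log2 scale (adjusted p = 0.00518), with all 3 Pear1-/- bleo libraries above all others. For Pfkp it was -0.36 (adjusted p = 0.00704), with all 3 WT bleo libraries above all others. For Eno1 it was 0.28 (adjusted p = 0.021), and without WT vehicle replicate 2 it was 0.13 and did not pass (adjusted p = 0.119). Across all tested genes 37.1% had an interaction past the same threshold.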

How the results depend on the processing

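The enzymes called in either bleomycin comparison kept their direction and their call under every alternative run. Values that had not passed could change: Pfkl in WT passed without the filter on low counts and without WT vehicle replicate 2 (0.31 and 0.30), and became -0.0028 when TMM used genes averaging 5 or more in log2 CPM, an alternative chosen after seeing the data, and Pfkp in Pear1-/- became -0.039 with upper-quartile scaling, -0.086 with that TMM and from -0.023 to 0.033 when leaving out a library. Between the bleo groups, fitting these alone gave 8 higher and 2 lower, where 66.0% of all genes were called. Gapdh became 0.11 there, and 0.056 in the interaction, with its copies added (also chosen after seeing the data).

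Between the vehicle groups 0 enzymes were higher, against 4 without the filter on low counts (13.9% of all genes called), 1 with a replicate block (Ldha, 7.21% of all genes) and from 0 to 9 when leaving out a library, with 9 without WT vehicle replicate 2 (55.3% of all genes) and 0 genes of any kind called without any other single vehicle library. All genes called there numbered 1261, against 823 with DESeq2, 784 without the robust estimate, 161 and 33 with limma, 2188 with library totals, 5676 without a filter, 11281 without WT vehicle replicate 2 and 0 with only these groups fitted or with WT vehicle replicate 2 alone. In WT bleo 11834 genes were called, against 19714 without a filter. Between the vehicle groups, values that turned were, with library totals alone, Pfkl (-0.039), Aldoa (-0.017), Pgk1 (-0.069) and Eno1 (-0.070), with upper quartile Pgk1 (-0.0017) and Eno1 (-0.00074), with the added TMM Pgk1 (-0.017) and Eno1 (-0.017), and with WT vehicle replicate 2 alone (chosen after seeing the data) Hk2 (-0.044), Aldoa (-0.018), Gapdh (-0.0060), Pgk1 (-0.078) and Eno1 (-0.035). Pfkp became 0.00015 with DESeq2 size factors, 0.0019 with limma on variance-stabilized values, 0.0020 with limma on the deposited values, 0.089 without a filter and from -0.049 to 0.10 when leaving out a library. The log2 ratios between these groups, leaving out a library, ran from -0.021 to 0.13 for Hk2 to Hk1, from -0.19 to 0.0069 for Pfkp to Pfkl and from -0.058 to 0.037 for Ldha to Ldhb.

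The interaction was positive for 2 enzymes, against 6 with library totals alone, 4 with upper quartile, 4 with the added TMM, 1 with limma on the deposited values, 1 without a filter, 6 with WT vehicle replicate 2 alone and from 0 to 4 when leaving out a library. It was negative for 1, against 0 with library totals, 2 without a filter and from 1 to 3 when leaving out a library. Of all genes, 37.8% had an interaction called with library totals, 37.6% with upper quartile, 37.2% with the added TMM, 33.9% with limma on the deposited values, 16.1% without a filter, 33.2% with WT vehicle replicate 2 alone and from 26.6% to 46.4% when leaving out a library. Hk2 turned to 0.093 with library totals, 0.027 with upper quartile, 0.015 with the added TMM and 0.24 with WT vehicle replicate 2 alone, and Hk1 (-0.00035) and Aldoa (-0.023) turned without a filter. Leaving out a library gave values from -0.075 to 0.14 for Hk1, from -0.30 to 0.024 for Hk2, from -0.11 to 0.11 for Aldoa, from -0.067 to 0.15 for Pgk1 and from -0.011 to 0.33 for Ldha. The cause was not tested.

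Scaling moved the median of all genes by -0.15 (upper quartile) and -0.18 (added TMM) in WT bleo, by -0.11 (added TMM) in Pear1-/- bleo, and with library totals by -0.15 between vehicle groups and by 0.15 in the interaction. The share of all calls that were higher went from 46.3 to 35.4% in WT bleo with the added TMM, from 27.0 to 6.35% with library totals, 12.5% with upper quartile and 11.8% with the added TMM between vehicle groups, and from 48.1 to 61.9% in the interaction with library totals. Same-numbered replicates did not deviate together: 0 of 18 pairs had a correlation over 0.1 (from -0.16 to 0.10). No pairing by number was seen, but with bleo libraries near counting noise these values cannot exclude one. The replicate block also lost the Aldoa call between the bleo groups. With 3 libraries a group, the exact permutation tests of the ratios could not go under p = 0.1.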

Other observations

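One of the near-identical copies of Gapdh, the processed pseudogene Gm13394 (GRCm38 chr2:28933610-28934609, minus strand), was singled out after its values were seen. It had between 10 and 14 counts in each of the 6 vehicle libraries, 13, 17 and 32 in WT bleo, while the Pear1-/- bleo libraries had 670, 674 and 610. Between these bleo groups the log2 fold change was 4.83 (standard error 0.18, edgeR adjusted p = 2.6e-13). Which of these reads came from Gapdh was not tested.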
